A study of Mus musculus with 42 samples.

Results

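Benzo(k)fluoranthene (BkF) is a combustion product of the polycyclic aromatic hydrocarbon class. Livers of mice given 100 mg/kg-bw of it per day (D3, here the high dose) were compared with livers of mice given 50 mg/kg-bw per day (D2, here the medium dose). The comparison holds 4 high-dose and 3 medium-dose arrays, chosen by dose group and tissue from the sample labels, which is 7 of the 42 arrays of the series. All animals were adult male Muta™Mouse of about 11 weeks, a transgenic strain that carries a bacterial reporter gene for mutation assays, and each array holds the liver of a separate animal. BkF in olive oil was given by oral gavage for 28 consecutive days, and liver was taken 72 h after the last dose. The vehicle group (D0, 4 liver arrays, olive oil alone) did not enter the comparison, and its values are given beside those of the dosed mice as background. Livers of the low-dose group (D1, 25 mg/kg-bw per day) did not enter it either. They served in an alternative fit of all 13 liver arrays and are cited for Trim12a. The medium-dose mice are numbered 11, 12 and 13 and the high-dose mice 16, 17, 19 and 20, and single values below follow that order. Which genes still moved when the daily dose rose from 50 to 100 mg/kg-bw was the question.

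Each value is a log2 ratio of the liver RNA (red channel) over a reference RNA pooled from 11 mouse cell lines (green channel), after loess normalisation within the array, so 0 means the same level as the reference and not the absence of the transcript. Differences are high minus medium dose on the log2 scale. Calls required both a change of 1.5-fold or more and a limma p, adjusted for all probes, that did not exceed 0.05.

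Polycyclic aromatic hydrocarbons such as BkF bind the aryl hydrocarbon receptor (AhR), which pairs with Arnt in the nucleus and switches on genes that carry its short DNA motif. Among its targets are the cytochromes P450 Cyp1a1, Cyp1a2 and Cyp1b1, which oxidise such compounds, and Ahrr and Tiparp, which dampen the receptor in a feedback loop. In mouse liver Cyp1a2 is made by hepatocytes also without a ligand, whereas Cyp1a1 is low until the receptor is activated. Many other hepatic genes differ between the sexes because the male and female patterns of growth hormone release set them apart.

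The 250 bases before the annotated start of 4 AhR targets followed below are shown for the core letters that the receptor complex reads, GCGTG or, on the opposite strand, CACGC, in capitals (RefSeq, build GRCm38.p6). Both spellings were searched, and they have no overlap with each other here. Of 32851 promoters of that length, 28.16% hold at least 1 of them, so a match describes the letters only.
Cyp1a1 (chr9:57697363-57697612, forward strand): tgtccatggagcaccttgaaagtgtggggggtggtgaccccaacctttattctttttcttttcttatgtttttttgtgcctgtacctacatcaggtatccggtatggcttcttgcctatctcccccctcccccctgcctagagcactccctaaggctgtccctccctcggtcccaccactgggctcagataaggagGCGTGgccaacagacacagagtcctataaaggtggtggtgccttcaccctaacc
Cyp1b1 (chr17:79715062-79715311, reverse strand): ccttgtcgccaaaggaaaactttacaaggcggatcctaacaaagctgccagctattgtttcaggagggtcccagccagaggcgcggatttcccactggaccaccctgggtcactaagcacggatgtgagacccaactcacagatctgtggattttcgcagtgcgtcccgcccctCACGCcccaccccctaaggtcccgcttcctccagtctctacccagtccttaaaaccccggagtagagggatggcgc
Tiparp (chr3:65528197-65528446, forward strand): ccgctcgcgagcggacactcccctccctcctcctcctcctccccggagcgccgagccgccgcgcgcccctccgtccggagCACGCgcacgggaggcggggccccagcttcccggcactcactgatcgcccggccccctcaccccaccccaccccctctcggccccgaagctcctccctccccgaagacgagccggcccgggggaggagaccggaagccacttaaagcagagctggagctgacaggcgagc
Ahrr (chr13:74292332-74292581, reverse strand): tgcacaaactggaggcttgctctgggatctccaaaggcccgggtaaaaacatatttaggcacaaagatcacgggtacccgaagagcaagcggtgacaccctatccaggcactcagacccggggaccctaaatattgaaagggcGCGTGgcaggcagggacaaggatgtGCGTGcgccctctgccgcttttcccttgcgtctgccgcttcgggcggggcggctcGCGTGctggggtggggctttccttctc
The windows of Cyp1a1, Cyp1b1 and Tiparp each hold 1 such core and that of Ahrr holds 3.

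Of the 7 arrays, 3 stood apart, those of medium-dose mice 12 and 13 and of high-dose mouse 17, and values without them are given beside the results that they move most. The array of medium-dose mouse 12 correlated with the other 6 at 0.942 to 0.955 over 24528 probes, whereas the 15 pairs of the remaining arrays correlated at 0.967 to 0.988. On it 219 probes lay more than 2-fold above every other array and 144 more than 2-fold below. High-dose mouse 17 had 124 such probes above and 2 below, among them genes of skeletal muscle. On the other 5 arrays 1 to 9 probes lay above and 1 to 10 below. Medium-dose mouse 13 carried neutrophil genes and had the largest share of probes well above background, 57.6% against 41.2 to 46.4% on the rest. The arrays lay on 2 slides, 1 with mice 11, 12, 16 and 17 and the other with mice 13, 19 and 20, and both slides held both doses. Mouse 13 was the only medium-dose array of its slide, so every dose difference on that slide rests on it. All medium-dose arrays lay in column 3 of their slide and the high-dose arrays in column 4, except mouse 20 in column 3. The 10 spiked-in control RNAs differed by 0.06 to 0.15 between the mean values of the doses. Single arrays differed more. On most spikes medium-dose mouse 13 and high-dose mouse 19 read above the rest. For example, E1A_r60_a20 was at 0.80 and 0.75 in these mice and at -0.03 to 0.37 in the others. Hepatocyte markers were high throughout, with albumin (Alb) at 7.06, 7.14 and 7.41 in the medium-dose and 6.64, 6.60, 7.33 and 7.12 in the high-dose livers.

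No probe was called between the high and the medium dose. Of 24528 probes tested with limma, 0 passed (0%), the lowest adjusted p was 0.999, and 485 (1.98%) had an unadjusted p under 0.05. Changes of at least 1.5-fold in the means were seen for 257 probes higher and 230 lower at the high dose, with a median difference of 0.0049 over all probes. The values of all 4 high-dose mice lay above those of all 3 medium-dose mice for 426 probes (1.74%) and below them for 326 (1.33%). These shares are the background for the counts below. The 95% interval of a difference had a median half-width of 0.35 on the log2 scale, without adjustment, and differences of up to 2.80 were not called after adjustment. Every alternative processing of all 7 arrays, and the fit of all 13 liver arrays, also called 0 probes, with 229 to 1332 at an unadjusted p under 0.05. Leaving out high-dose mouse 17 was the only single omission that gave a call, and it called 1 probe, for Trim12a.

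Cyp1a1, Cyp1b1, Ahrr and Tiparp lay above all 4 vehicle livers in each of the 7 dosed livers, and none of these AhR targets was called between the doses. Cyp1a1, the hydrocarbon-oxidising enzyme most responsive to the receptor, stood at 3.73, 7.15 and 6.26 in the medium-dose mice and at 5.90, 7.05, 2.62 and 5.55 in the high-dose mice, against 0.02 ± 0.14 (SD, n = 4) in vehicle livers. The 2 dose groups overlapped, with the highest value in medium-dose mouse 12 and the lowest in high-dose mouse 19. The difference of the means was -0.43 with a 95% interval of -2.89 to 2.02, and its sign differed between slides, 1.03 on the slide of mouse 12 and -2.17 on the other. Without mouse 12 it was 0.28.

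Cyp1b1, an extrahepatic relative of Cyp1a1, read -0.86, 2.27 and -0.21 (medium dose) and -1.11, 0.33, -1.35 and -0.46 (high dose), against -2.71 ± 0.06 (SD, n = 4) in vehicle livers. Mouse 12 was the highest, and the difference of -1.04 (-2.65 to 0.56) shrank to -0.11 without it. Ahrr, the AhR repressor, gave 0.42, 2.11 and 0.50 (medium dose) and 0.45, 0.93, 0.32 and 0.88 (high dose). Tiparp, which ADP-ribosylates the receptor, gave -2.012, -0.963 and -2.001 (medium dose) and -2.021, -1.504, -2.299 and -2.217 (high dose). Both were again highest in mouse 12 and otherwise overlapped, with differences of -0.37 (-1.26 to 0.52) and -0.35 (-1.01 to 0.31). Without mouse 12, Ahrr turned to 0.18 and Tiparp was -0.0034. Nqo1, a quinone reductase shared with the Nrf2 pathway, was -1.09, 0.69 and -0.80 at the medium and -1.09, -0.77, -1.15 and -1.12 at the high dose, and its difference went from -0.63 to -0.09 without mouse 12. Cyp1a2 varied little, at 6.29, 6.30 and 6.69 (medium dose) and 5.81, 6.35, 6.44 and 6.34 (high dose), close to the vehicle level of 6.28 ± 0.13 (SD, n = 4).

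Of the 20 genes on the AhR list, 19 were tested, 15 had a lower and 4 a higher mean at the high dose, and 0 were called or separated the groups. Their median difference was -0.30, and mouse 12 was the highest of the 7 for 14 of the 19. Without that mouse the median was -0.0039. The highest difference on the list was that of Ugdh, which makes UDP-glucuronic acid for conjugation, with a difference of 0.27 (-0.10 to 0.63). The receptor itself, Ahr, differed by -0.30 (-0.11 without mouse 12) and its partner Arnt by -0.03.

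**Figure D1:**
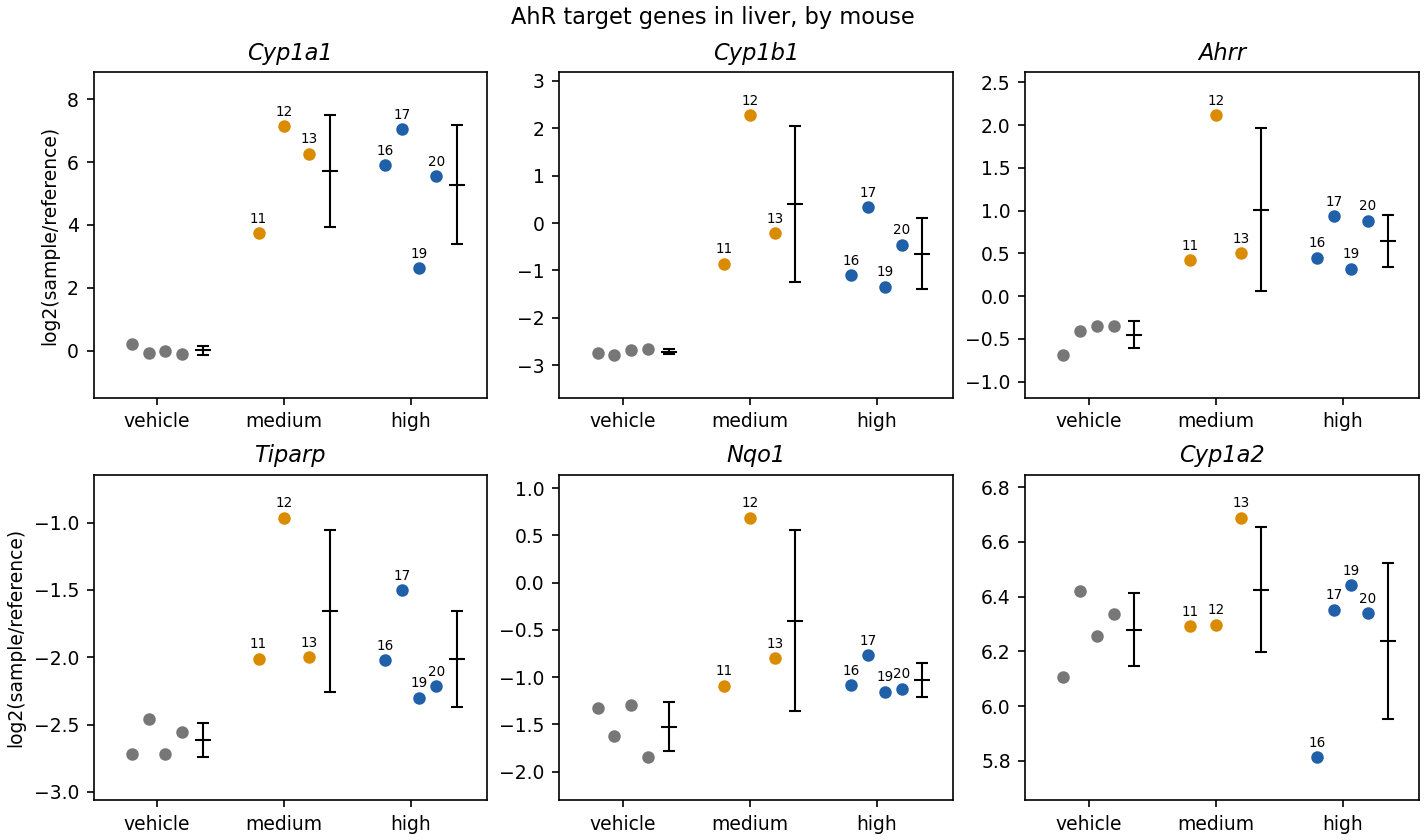
AhR target genes in liver, with the log2 ratio of sample over reference on each vertical axis and 1 point per mouse (dosed mice are numbered) for the vehicle, medium-dose and high-dose groups; bars to the right of each group give the mean and SD. For Cyp1a1 all dosed mice lie above the vehicle mice, and medium-dose mice (3.73 to 7.15) overlap high-dose mice (2.62 to 7.05).

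With no call to rank, genes were ordered by unadjusted p among those that differed by at least 1.5-fold, 10 in each direction, and they are given as a description since they were picked for this difference. Of the 10 lowest at the high dose, 6 had groups that did not overlap, all 10 fell on the same side on both slides, and mouse 12 was the highest array for 9. Slco1a4, an uptake transporter for organic anions, was 3.32, 4.62 and 2.99 (medium dose) and 2.59, 2.10, 1.86 and 2.96 (high dose). Cdkn1a, the cell cycle inhibitor p21, was -2.56, -0.74 and -2.39 (medium dose) and -3.10, -3.16, -2.74 and -3.57 (high dose). In both genes mouse 12 was far above the rest, and the differences of -1.26 and -1.24 became -0.77 and -0.67 without it. Spink1, a trypsin inhibitor, read 3.51, 7.18 and 3.44 (medium dose) and 2.68, 1.88, 2.04 and 2.78 (high dose), a difference of -2.36 that was -1.13 without mouse 12. Slc16a5, a monocarboxylate transporter, read 2.14, 4.87 and 2.87 (medium dose) and 1.24, 2.00, 0.15 and 2.18 (high dose), with overlapping groups and a difference of -1.90 that was -1.11 without mouse 12. The remaining genes were Acnat2, which joins acyl-CoA to amino acids (-1.31), the activin antagonist follistatin (Fst, -0.89), the interferon-responsive surface protein Ly6e (-0.74, and -0.48 without mouse 12) and the non-coding transcript Ctcflos (-0.71).

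Trim12a, a member of the tripartite motif family of ubiquitin ligases, was unlike the others in that its values took 2 levels. It was 2.70, 2.57 and 2.64 in the medium-dose mice and -0.39, 2.64, -0.29 and -0.65 in the high-dose mice, so mouse 17 lay with the medium dose and the other 3 high-dose mice lay lower. In vehicle livers it was 2.45, 2.31, 2.53 and -0.27, with both levels present without BkF. The probe was well above background on 1 of the 4 high-dose arrays, so the low values there lie near background and the differences given for this gene are between measured signals, not exact changes. The same mice were high or low in lung, at 3.62, 3.38 and 3.48 in mice 11 to 13 and -0.58, 3.94, -0.68 and -0.33 in mice 16, 17, 19 and 20. The liver difference was -2.31 (-3.92 to -0.70). A second Trim12a probe, gave -0.62 in the same direction. Without mouse 17 it was -3.08 with limma's adjusted p at 0.000869, the call named above.

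The 10 genes highest at the high dose differed by 0.61 to 1.01, all on the same side on both slides, and 7 had groups that did not overlap. In all 10 the lowest array was mouse 12 or mouse 13. Slc13a2, a sodium-coupled carrier of citrate and other dicarboxylates, had the largest difference, 1.01 (0.36 to 1.66), with 1.56, 0.49 and 0.57 at the medium and 1.53, 1.84, 1.83 and 2.34 at the high dose. Both groups lay well under the vehicle level of 4.00 ± 0.47 (SD, n = 4), and mouse 11 overlapped the high-dose mice. Kcnk1, a potassium channel, went the other way from vehicle (1.82 ± 0.48; SD, n = 4), at 2.85, 2.37 and 2.21 (medium dose) and 3.56, 2.62, 3.45 and 3.35 (high dose), and its groups overlapped through mouse 17. Mapk15, an atypical MAP kinase, read 1.05, 0.15 and 0.97 (medium dose) and 1.53, 1.28, 1.38 and 1.90 (high dose), without overlap, and its difference of 0.80 was 0.51 without mouse 12. Scyl3, a kinase-like protein, read 0.21, 0.11 and -0.43 (medium dose) and 0.51, 0.60, 0.61 and 0.57 (high dose), also without overlap, and had the lowest unadjusted p of the 10. The others were Smim6 (0.72), the Notch regulator Dtx1 (0.70), 1810034E14Rik (0.67), the methyltransferase Mettl18 (0.66), the GTPase-activating protein Arhgap6 (0.71) and the syntrophin Sntg2 (0.75). Probes of Mapk15, Smim6 and Dtx1 were well above background on 2 of 3 medium-dose arrays.

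**Figure D2:**
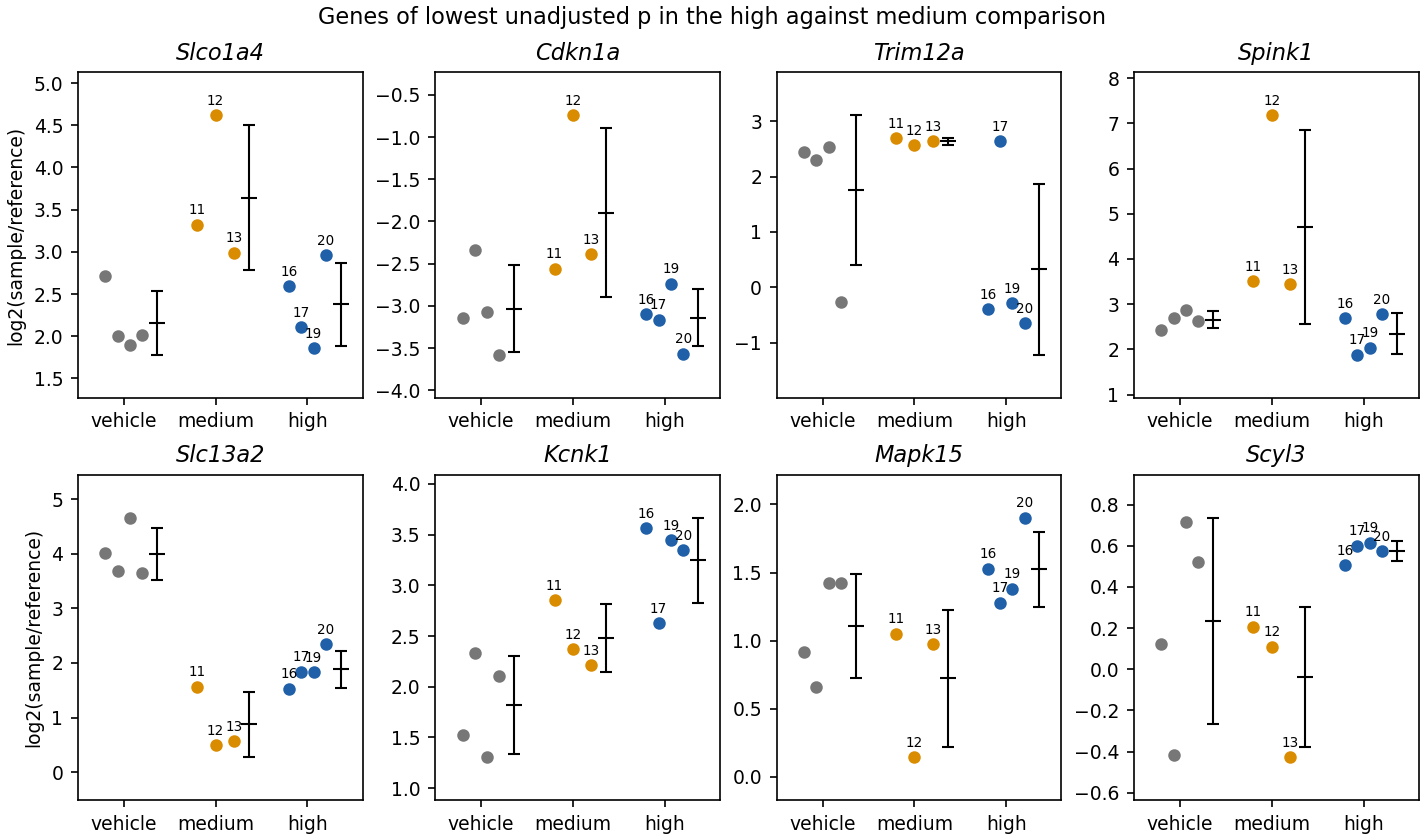
The 4 lower (top row) and 4 higher (bottom row) genes described most fully among those of lowest unadjusted p, with the log2 ratio of sample over reference on each vertical axis and 1 point per mouse; bars give the mean and SD. High- and medium-dose mice are apart for Slco1a4, Cdkn1a, Spink1, Mapk15 and Scyl3 and overlap for Trim12a, Slc13a2 and Kcnk1.

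Genes of S phase and mitosis had lower means at the high dose than at the medium dose. Of 27 on the list 24 were tested, 21 had a lower and 3 a higher mean, the median difference was -0.35 against 0.0049 over all probes, and 0 were called. In 4 of the 24 all high-dose values lay below all medium-dose values (background 1.33%), namely Rrm2, Plk1, Ccne1 and Mcm5, and 6 had an unadjusted p under 0.05 (background 1.98% in either direction). On both slides 20 of the 24 were lower, against 20.8% of all probes. Mouse 13 was the only medium-dose array of its slide, so the difference there rests on that animal. Rrm2, a subunit of the reductase that makes deoxynucleotides, was -4.08, -4.36 and -4.09 (medium dose) and -4.78, -4.48, -4.60 and -4.68 (high dose). Plk1, a mitotic kinase, was -1.95, -1.85 and -1.82 (medium dose) and -2.29, -2.40, -2.10 and -2.01 (high dose). The gaps between the groups were small in both. Ccnd1, the G1 cyclin with the lowest difference of the list, was -2.77, -0.47 and -1.05 (medium dose) and -2.52, -2.15, -2.77 and -2.22 (high dose), and mouse 11 was as low as the high-dose mice. Its difference of -0.99 was -0.51 without mouse 12. The replication helicase subunit Mcm6 was -4.93, -4.26 and -3.30 (medium dose) and -5.21, -4.39, -5.45 and -5.26 (high dose), highest in mouse 13, and the highest difference of the list was that of Mcm3 (0.18).

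Mouse 13 was the highest array for 13 of the 24 proliferation genes, against 16.7% of all probes, and it was also the mouse with neutrophil transcripts, whose part in this difference was not tested. Without mouse 13 the list's median was -0.23 and without mouse 12 -0.30, and over all settings it ranged from -0.53 to -0.22. The list's mean score, which is the mean log2 distance of its genes from their own medians over the 7 arrays, was 0.02, 0.27 and 0.47 (medium dose), -0.12, -0.12, -0.09 and 0.0011 (high dose) and from -0.36 to -0.01 in the vehicle livers, so medium-dose mouse 11 lay next to high-dose mouse 20.

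**Figure D3:**
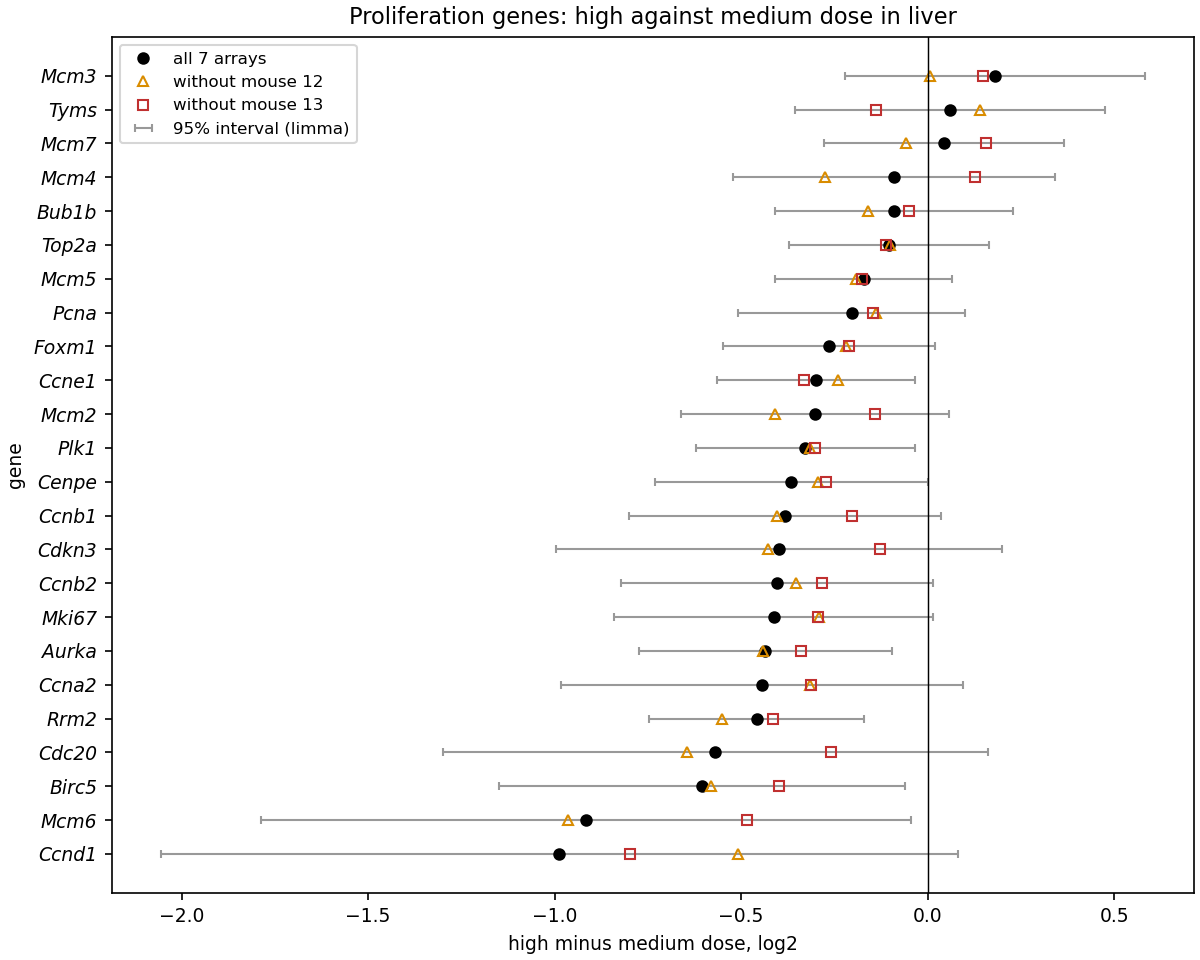
High minus medium dose (log2, horizontal axis) for the 24 tested proliferation genes (vertical axis), as black points with 95% limma intervals for all 7 arrays and as open symbols without mouse 12 or without mouse 13. Most points lie left of 0, from -0.99 for Ccnd1 to 0.18 for Mcm3, and they stay left of 0 for most genes without either mouse.

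Of the 27 targets of p53, the transcription factor that answers DNA damage, 24 were tested and 18 had a lower mean at the high dose, with a median difference of -0.15 and 0 called. All high-dose values lay below all medium-dose values for Cdkn1a and for the death receptor Tnfrsf10b, at -2.25, -1.57 and -2.10 (medium dose) and -2.37, -2.32, -2.26 and -2.73 (high dose). Gdf15, a stress-responsive cytokine, was the highest of the list, at -1.62, -1.59 and -1.27 (medium dose) and -0.92, -0.31, -1.40 and -0.32 (high dose), and its groups overlapped. The kinase Plk3 differed by -1.02 and the antiproliferative Btg2 by -0.75, with overlap in both, and Btg2 by -0.31 without mouse 12. Tnfrsf10b differed by -0.45, and by -0.24 without mouse 12. Mdm2, which degrades p53, differed by -0.11 (-0.39 to 0.17), Ccng1 by -0.08 and Bax, a trigger of apoptosis, by -0.16. Without mouse 12 the list's median was -0.08.

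Apart from markers of other cell types, the largest list medians were those of sex-biased liver genes, and they rested in large part on medium-dose mouse 12. Of the 25 male-biased genes 24 were tested, 23 had a higher mean at the high dose, and the median difference was 0.88. Of the 24 female-biased genes 14 were tested, all 14 had a lower mean, and the median was -0.93. None was called, and in none of either list did the groups separate (background 1.74% and 1.33%). Mouse 12 was the lowest array for 22 of the 24 male-biased genes and the highest for 11 of the 14 female-biased genes, against 20.8% and 19.4% of all probes. Without it the medians were -0.03 and -0.23, and 12 male-biased genes were higher and 12 lower. Of the female-biased genes, 11 were still lower and 3 were higher without mouse 12.

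Cyp4a12a, a male-specific fatty acid hydroxylase, was 8.94, 1.36 and 8.68 (medium dose) and 8.73, 8.21, 8.44 and 9.10 (high dose), next to 8.92 ± 0.29 (SD, n = 4) in vehicle livers. Only mouse 12 departed, by more than 6 log2 units. The steroid dehydrogenase Hsd3b5 read 6.46, 0.21 and 6.19 (medium dose) and 6.16, 6.13, 6.61 and 6.54 (high dose). The bile acid and steroid transporter Slco1a1 read 6.65, 0.29 and 6.44 (medium dose) and 6.70, 6.65, 6.61 and 6.86 (high dose). The fatty acid elongase Elovl3 read 5.31, 0.09 and 5.37 (medium dose) and 5.13, 4.09, 5.59 and 4.98 (high dose). Outside mouse 12, the doses overlapped in these 3 genes, and their probes were well above background on 2 of the 3 medium-dose arrays. In the other direction, the female-specific P450 Cyp3a44 read 0.49, 7.91 and 0.83 (medium dose) and 0.42, 0.07, 0.70 and 0.56 (high dose). Cyp17a1, an enzyme of androgen synthesis, read 1.841, 5.658 and 1.757 (medium dose) and 1.815, 1.299, 1.734 and 1.523 (high dose). The female-biased sulfotransferase Sult1e1, which inactivates oestrogen and had the lowest difference of the drug metabolism list, was 1.67, 8.69 and 1.90 (medium dose) and 1.58, 0.68, 2.15 and 1.00 (high dose). In each of these genes mouse 12 alone was far from the rest, and these examples, other than the list extremes Cyp4a12a, Cyp3a44 and Sult1e1, were chosen after their values were seen. Y-linked genes did not set mouse 12 apart, with Ddx3y at 1.76, 1.85 and 1.67 (medium dose) and 1.49, 1.81, 1.86 and 2.06 (high dose) and Eif2s3y at 2.04, 2.06 and 2.30 (medium dose) and 2.42, 2.19, 2.61 and 2.48 (high dose). Xist, the transcript of X inactivation, was not well above background on any medium-dose array. Among genes of growth hormone signalling, the receptor Ghr was 3.51, 2.80 and 3.64 (medium dose) and 3.16, 3.44, 3.57 and 3.56 (high dose), lowest in mouse 12, and Igf1, its main hepatic target, 6.29, 6.44 and 6.10 (medium dose) and 6.03, 6.09, 6.18 and 6.23 (high dose).

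Moxd1, also male-biased, was an exception in that a high-dose mouse stood out. It read 1.81, 0.02 and 0.90 (medium dose) and 5.42, 1.72, 1.86 and 1.05 (high dose), and mouse 16 matched the vehicle level of 5.42 ± 0.70 (SD, n = 4) while the other mice of both doses lay well below it.

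**Figure D4:**
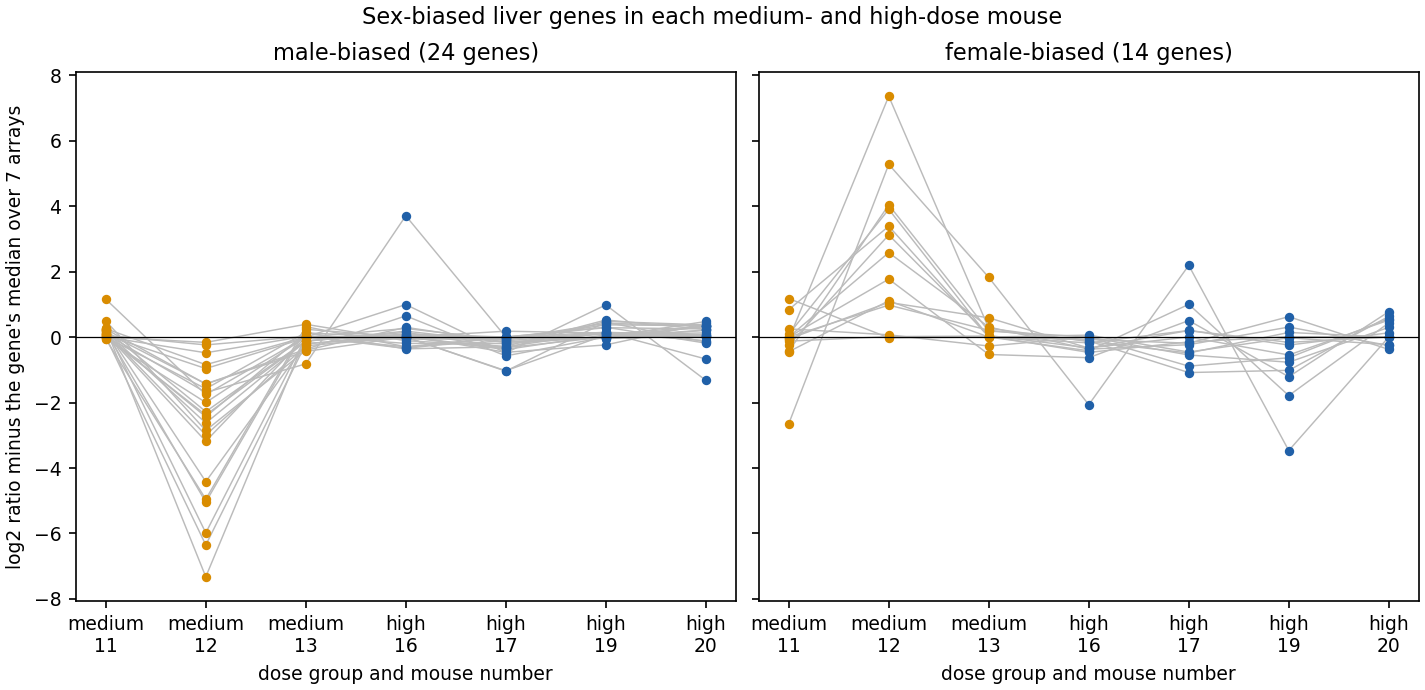
Tested male-biased (24) and female-biased (14) liver genes, drawn as the log2 ratio minus the gene's median over the 7 arrays (vertical axis) for each medium- and high-dose mouse (horizontal axis), with 1 grey line per gene. Mouse 12 lies lowest for 22 male-biased and highest for 11 female-biased genes.

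No gene of antigen presentation was called between the doses, and mouse 12 was again apart. Cd74, the invariant chain of MHC class II, was 1.47, 0.19 and 1.98 (medium dose) and 0.78, 1.42, 0.90 and 1.53 (high dose), above -0.78 ± 0.19 (SD, n = 4) in vehicle livers, with a difference of -0.06 (-0.95 to 0.83). H2-Aa, a class II chain, was 4.32, 2.68 and 4.90 (medium dose) and 3.83, 4.49, 3.40 and 4.44 (high dose). Mouse 12 was the lowest array for all 8 tested genes of this list, whose median difference was 0.03 with it and -0.39 without it, and for 23 of the 25 interferon-stimulated genes (0.12 with it, -0.24 without it). Mouse 13 was the highest for 7 of the 8 and for 15 of the 25, and without it the medians were 0.36 and 0.36. Kupffer cell and macrophage markers had scores of 0.14, -0.57 and 0.42 (medium dose) and -0.23, 0.50, -0.12 and -0.05 (high dose) over 11 tested genes, also lowest in mouse 12, and their part in the class II values was not tested. The scavenger protein Cd5l, a Kupffer cell marker, was 6.11, 2.64 and 5.71 (medium dose) and 5.28, 5.09, 5.29 and 6.02 (high dose). In such bulk tissue, fewer cells of a type and less RNA per cell cannot be told apart.

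Among single immune and hepatic genes, most overlapped between the doses. Cx3cr1, the fractalkine receptor of monocytes and macrophages, read 1.39, 2.44 and 1.52 (medium dose) and 2.62, 2.22, 1.87 and 2.31 (high dose) (difference 0.47, -0.15 to 1.09), and the dendritic and macrophage protease Adamdec1 3.40, 2.97 and 4.12 (medium dose) and 3.73, 4.25, 3.41 and 4.20 (high dose) (0.40, -0.28 to 1.08). Without mouse 12 these differences were 0.80 and 0.13. Both were above their vehicle levels of 0.51 ± 0.36 and 1.61 ± 0.06 (SD, n = 4). Pglyrp2, a hepatic enzyme that cleaves bacterial peptidoglycan, was 4.33, 4.58 and 4.19 (medium dose) and 3.90, 3.98, 3.79 and 4.18 (high dose), without overlap and with a difference of -0.40 (-0.73 to -0.07) that is under 1.5-fold. Mmd2 read 1.99, 0.29 and 0.94 (medium dose) and 0.58, 0.33, 1.00 and 0.66 (high dose), below 3.099 ± 0.53 (SD, n = 4) in vehicle livers, and its difference of -0.43 was -0.82 without mouse 12 and 0.027 without mouse 11. Neutrophil granule genes were found mainly in mouse 13, with S100a9 at 3.14, 4.46 and 7.12 (medium dose) and 4.11, 4.55, 2.50 and 4.04 (high dose) and the antimicrobial peptide Camp at 0.16, 0.56 and 4.39 (medium dose) and -0.24, 0.39, -0.12 and 0.03 (high dose). Of the 9 neutrophil markers 8 had a probe and 4 were tested, and the list's median was -1.18 with mouse 13 and -0.22 without it.

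Markers of other tissues lay in 2 high-dose livers. Skeletal muscle genes were high in mouse 17 alone, where the actin Acta1 read -1.88, -1.53 and -1.81 (medium dose) and -2.03, 4.63, -1.41 and -2.17 (high dose). Fast troponin Tnni2 read -2.04, -2.53 and -1.83 (medium dose) and -2.12, 4.44, -2.04 and -1.95 (high dose). Of the 13 muscle markers 5 were tested, and the list's median was 1.48 with mouse 17 and 0.06 without it. The score of fat markers was raised in mice 17 and 20. Cfd, the adipocyte protein adipsin, was at 0.14, -0.0076 and -0.0055 (medium dose) and 0.21, 6.46, 0.15 and 4.57 (high dose). The adipokine Adipoq was at 0.19, -0.21 and 0.45 (medium dose) and -0.0043, 3.13, 0.25 and 1.29 (high dose). Of the 8 fat markers 5 were tested, 4 had a higher mean at the high dose, and 1, Cidea, had a lower mean (-0.32). Probes of Acta1, Adipoq and Cfd were each well above background on 1 of 3 medium-dose arrays, and on 2, 3 and 4 of the 4 high-dose arrays, so their low values lie near background and give no exact difference. Acinar markers of the pancreas scored 0.02, -0.29 and -0.47 (medium dose) and -0.05, 1.18, -0.12 and -0.05 (high dose) over 3 tested genes, highest in mouse 17. A slice of the left lobe had been taken at random from each liver. The part of adjoining tissue in the values of mice 17 and 20 was not tested.

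Metabolic lists overlapped between the doses in nearly all members. Of 25 cholesterol synthesis genes, 22 had a lower mean at the high dose with a median of -0.11, but mouse 12 was the highest array for 19, and without it 21 were higher with a median of 0.13. Among 20 tested genes of bile acid synthesis and transport, Cyp8b1, which makes cholic acid, had the highest difference (0.84; 4.82, 4.54 and 5.63 (medium dose) and 5.54, 6.31, 5.50 and 5.99 (high dose)), with overlap. Among 22 tested targets of the fatty acid sensor PPAR alpha, Cyp4a14, an omega-hydroxylase, was lowest (-1.42), reached 4.83 in mouse 12, and differed by -0.10 without it. The metal-binding Mt2 was at -3.31, 2.30 and -3.91 (medium dose) and -3.22, -1.91, -4.14 and -4.16 (high dose). Its relative Mt1 was at -3.46, 2.02 and -3.02 (medium dose) and -3.43, -1.04, -4.37 and -3.33 (high dose), and both were high in mouse 12 and next in mouse 17. In retinoid metabolism, Cyp26b1, which degrades retinoic acid, had the lowest of 19 differences, -1.04 (-1.74 without mouse 17), with overlap. Retsat, a retinol saturase, read 2.53, 2.49 and 2.80 (medium dose) and 2.33, 2.54, 2.62 and 2.49 (high dose) (-0.11, -0.40 to 0.18), under 3.42 ± 0.19 (SD, n = 4) in vehicle livers. Of 19 tested clock genes 0 separated the groups, and the output regulator Dbp spread from -1.29 in mouse 19 to 2.02 in mouse 20 within the high dose.

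The other lists also had 0 calls. The bracketed range after each list median holds its values over the 18 alternatives, each single mouse left out among them, and where it crosses 0 the sign depended on the setting. Of the Nrf2 targets, which answer oxidative stress, 12 of 14 tested had a lower mean, with a median of -0.17 (-0.24 to 0.04), and 1 separated the groups, the efflux pump Abcc4 at -1.62, -0.41 and -1.72 (medium dose) and -2.11, -1.77, -1.87 and -1.75 (high dose). Its difference of -0.63 was -0.21 without mouse 12. Drug metabolism genes under CAR and PXR had a median of -0.05 (-0.20 to 0.08), lipogenesis -0.08 (-0.18 to 0.13), bile acid genes 0.09 (-0.09 to 0.26), PPAR alpha targets -0.11 (-0.15 to 0.07), retinoid genes -0.06 (-0.14 to 0.07), clock genes 0.06 (-0.07 to 0.32) and chemokines 0.03 (-0.12 to 0.12). Glucose production and use had -0.10 (-0.17 to 0.09), with 1 gene apart, the serine dehydratase Sds at 6.46, 6.47 and 6.25 (medium dose) and 5.90, 5.84, 5.99 and 6.20 (high dose). Acute phase proteins had -0.08 (-0.17 to 0.02), with 1 apart, the copper carrier ceruloplasmin (Cp) at 3.15, 4.80 and 3.20 (medium dose) and 2.99, 3.03, 2.97 and 2.97 (high dose). Its difference of -0.73 was -0.19 without mouse 12. Metallothionein and heat shock genes had -0.20 (-0.40 to -0.0082) and were highest in mouse 13 for 10 of 18. Collagen and fibrosis genes had -0.33 (-0.53 to 0.03), with 0.03 without mouse 12. Growth hormone signalling, a list added after the data were seen, had a median of -0.35, and -0.10 without mouse 12, with 1 of 8 apart, the feedback inhibitor Socs3 at 0.26, -0.53 and -0.37 (medium dose) and -0.77, -0.73, -0.67 and -1.52 (high dose). On this list 5 genes had a lower and 3 a higher mean. Cish, also a feedback gene, had the lowest difference (-1.30) and Socs2 differed by -0.66, with overlap in both.

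Markers of the other cell types of liver and blood were described in the same way. Hepatocyte markers had a median difference of -0.17 (-0.25 to -0.07) with 11 of 12 lower, and the 1 whose groups separated was the hepatocyte transcription factor Hnf4a (-0.21). The medians were 0.09 (-0.38 to 0.33) for Kupffer cells and macrophages (without mouse 12 -0.23, with 10 of 11 genes lower), 0.10 (-0.06 to 0.24) for dendritic cells, 0.07 (-0.15 to 0.21) for stellate cells and fibroblasts, 0.08 (0.03 to 0.20) for sinusoidal endothelium, -0.07 (-0.25 to 0.03) for B and plasma cells, -0.04 (-0.17 to 0.09) for T and NK cells and 0.23 (-0.12 to 0.50) for erythroid cells. For cholangiocytes, the bile duct cells, it was 0.0019 (-0.09 to 0.14), and Spp1, or osteopontin, separated the groups at -3.81, -3.92 and -4.08 (medium dose) and -4.29, -4.15, -4.52 and -4.58 (high dose). Fat markers had 0.84 (0.23 to 1.54) and acinar markers 0.50 (0.10 to 0.94), which were 0.28 and 0.15 without mouse 17.

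**Figure D5:**
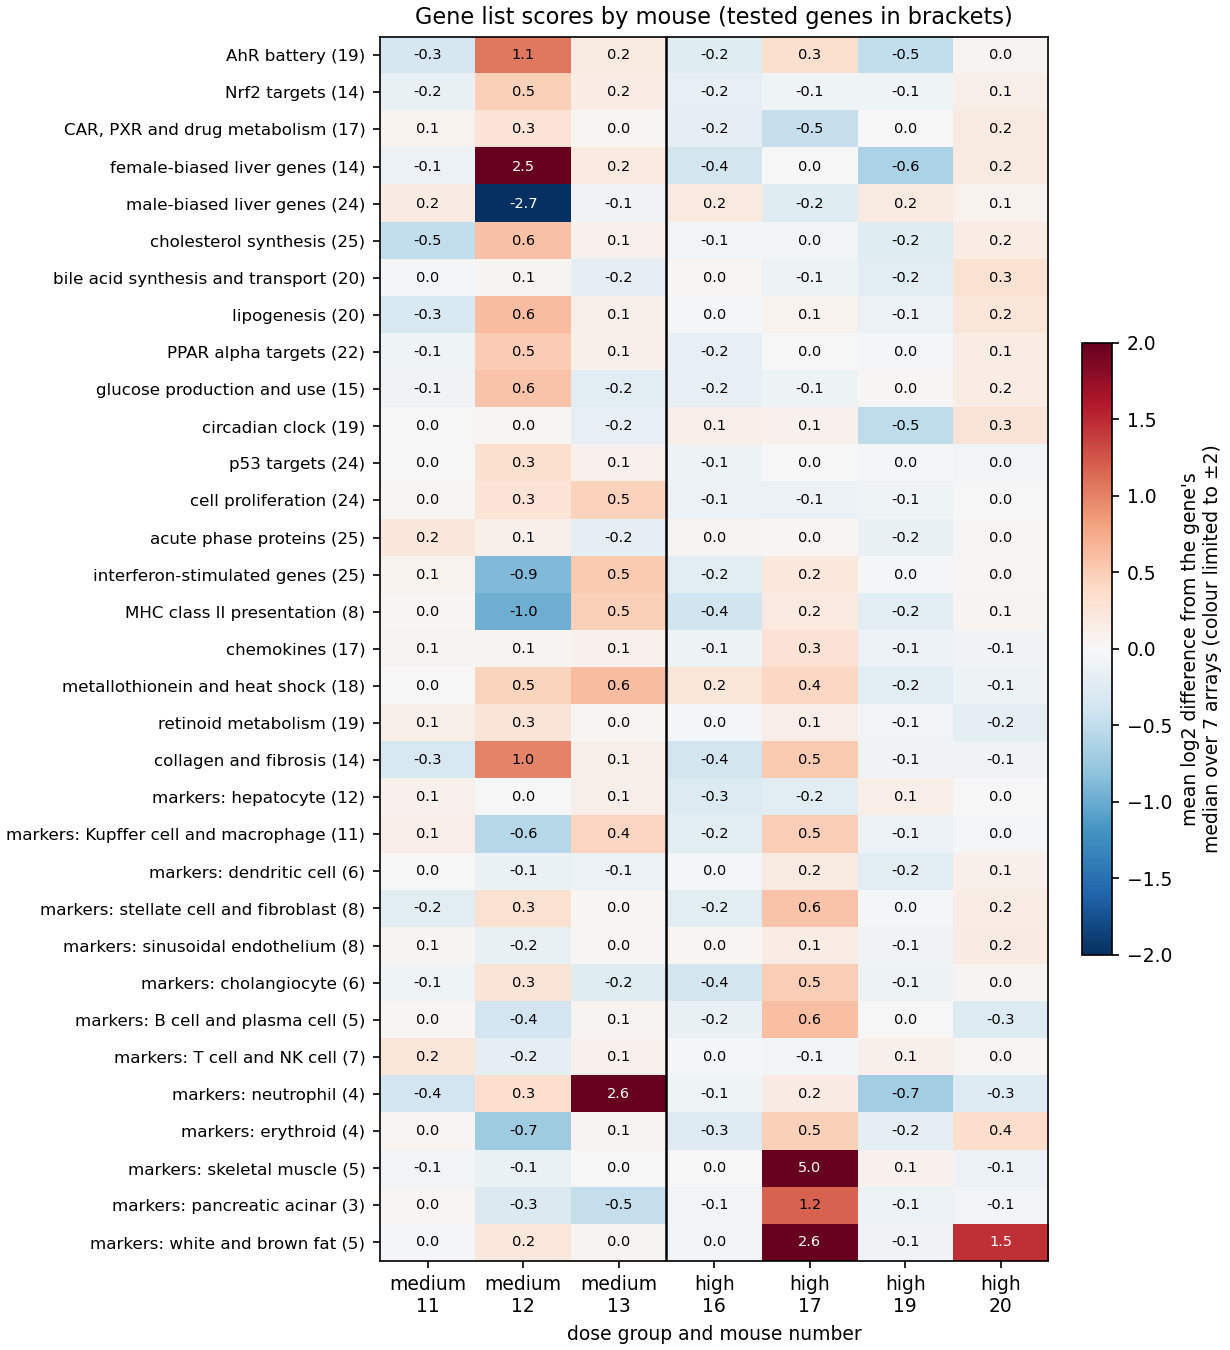
Score of each gene list (rows, with the number of tested genes in brackets) in each medium- and high-dose liver (columns, by mouse number), as the mean log2 difference of its genes from their medians over the 7 arrays, with colour limited to 2 in either direction. Mouse 12 holds the scores of female-biased genes (2.5) and male-biased genes (-2.7), mouse 13 that of neutrophil markers (2.6) and mouse 17 that of muscle markers (5.0), while fat markers are high in mice 17 (2.6) and 20 (1.5).

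The same step of dose was then set beside lung, where 8 arrays (4 at each dose) came from the same animals and 1 further medium-dose mouse. The liver difference minus the lung difference was called for 0 of 22984 probes (0%) by limma, with 452 at an unadjusted p under 0.05, a lowest adjusted p of 1.00, and 0 called in each of the alternatives run. AhR feedback genes had opposite signs in the 2 tissues, with Ahrr at -0.37 in liver and 0.88 in lung and Tiparp at -0.35 and 0.66, but the difference between tissues did not pass (limma adjusted p of 1.00 for both). Without mouse 12 the liver difference of Ahrr turned to 0.18 and that of Tiparp was -0.0034. Cyp1a1 was at -0.43 in liver and 0.52 in lung, and Cyp1b1 at -1.04 and 0.64. In liver without mouse 12 they were at 0.28 and -0.11, and Cyp1a1 was also positive without mouse 19 (0.45).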

How the data were processed

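RNA of liver and lung was labelled with Cy5 and hybridised with Cy3-labelled reference RNA on 2-colour Agilent mouse gene expression arrays, 1 animal per array and tissue, with no dye swap. The deposited files hold median intensity values of both channels per spot as the authors' scanner software wrote them (Feature Extraction 11.0.1.1 for liver and 10.7.3.1 for lung, per the file headers), without background subtraction. They also hold a log10 ratio that the software made from background-subtracted, dye-normalised signals, per the file headers, and it served as an alternative only. The methods describe LOWESS normalisation and a MAANOVA test, in whose place limma was used here.

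From the 62976 spots of each array, 3671 control spots were left out, log2 ratios of red over green medians were normalised by loess within the array (R 4.3.3, limma 3.58.1), and spots of 1 probe were averaged to 55681 probes. A probe was tested where it was well above background in red on at least 3 arrays of the comparison (24528 probes). Differences were fitted with lmFit and eBayes on the 7 arrays without covariates, and p-values were Benjamini-Hochberg adjusted over all tested probes. The filter can leave out genes on in fewer than 3 arrays, and the 7 arrays limit the precision.

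Names came from matching the probes' accessions to RefSeq, which gave 27235 probes a gene symbol, and a gene is shown by its probe of highest mean intensity. Named were the 10 genes per direction of lowest unadjusted p with at least 1.5-fold change, 6 AhR targets, the highest and lowest member of a list described, and 6 genes called against vehicle in earlier work on these data. Some genes that this rule names are not reported here. Other names were chosen after their values were seen. Members and all 33 lists (534 genes, 520 with a probe, 457 tested) were chosen with earlier results of these data known, and a list of Y-linked and X inactivation genes and another of growth hormone signalling were added after the values were seen. List scores use tested members only.

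Liver and lung share mice by the mouse numbers in the labels, so the fit with the mouse as a block was an alternative. Deviations from the group means of the same mouse correlated between liver and lung from -0.20 to 0.17 over 22984 probes. Each group holds separate animals. The fit was tested on simulated data.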

Additional observations from a re-analysis of the deposited data

Results flagged for a closer look

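Each of 32 genes and 33 list scores was searched in the 4 high-dose livers for a mouse far from the other 3, by the gap to its neighbour over the range of the group. Chance flags about 1 in 20 such groups, and 6 of 65 passed the limit of 0.829. Trim12a passed at 0.892, with mouse 17 at 2.64 and the others at -0.65 to -0.29. Cyp1a2 passed at 0.839, with mouse 16 lowest at 5.81. The score of the acute phase proteins passed at 0.847 for mouse 19. Scores of chemokines (0.889), skeletal muscle markers (0.958) and pancreatic acinar markers (0.948) passed for mouse 17. The 3 medium-dose livers are too few for this search, so mice 12 and 13 could not be flagged by it.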

How the results depend on the processing

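The count of called probes was 0 over the 7 arrays under every processing tried and in the fit of all 13 liver arrays. It was 0 to 1 when single animals were left out, with the 1 without high-dose mouse 17, and 1 without mice 12 and 17, an omission chosen after seeing the data. Both calls were Trim12a. Among the processings tried, quantile normalisation of mean intensities (Aquantile) leaves the log ratios unchanged, so its result could not differ from the one reported. Probes at an unadjusted p under 0.05 numbered 485 in the comparison reported, 229 with median centring, 970 with all 13 liver arrays, 1332 without the filter on dim probes, 1386 without mouse 11 and 970 without mouse 13. For liver against lung, the mouse number as replicate block called 0 probes and changed no call, and 508 had an unadjusted p under 0.05. There, 1415 passed that p without the filter, 1053 without mouse 11 and 255 without mouse 20, against 452. Cyp1a1 turned to 0.30 with array weights and, with single animals left out, ranged from -1.42 without mouse 11 to 0.45 without mouse 19, with 0.28 without mouse 12. Ahrr ranged from -0.66 to 0.18, the latter without mouse 12, and was 0.088 without mice 12 and 17. Cd74 turned to 0.31 with the array column as a covariate and 0.019 with median centring, and it ranged from -0.57 to 0.33 with single animals left out. Mmd2 ranged from -0.82 to 0.027, the latter without mouse 11. The cause was not tested. Of the other values, 556 of single genes and 586 of list medians kept their side or moved within the replicate spread, and 8 list medians moved more. The 7 arrays limit what can be seen, and dim probes are less precise than bright ones.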

Other observations

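Some values belong to no dose comparison. Within the high dose, Dbp, an output gene of the circadian clock, was at -1.29 in mouse 19 and 2.02 in mouse 20. In livers that did not enter the comparison, Trim12a was at the lower level in both low-dose mice (-0.46 and -0.57) and at both levels in the vehicle mice (2.45, 2.31, 2.53 and -0.27).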
